A study of Mus musculus with 8 samples.

Results

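The genes described are 39 glycoproteins, proteoglycans and related factors of the extracellular matrix, taken by symbol from a fixed list of names. Each of the 39 symbols had 1 gene identifier in the deposited table, which held 25572 identifiers in all. By role, 9 are cartilage genes, 9 basement membrane genes and 21 genes of interstitial matrix. Their levels were compared between neutrophils sorted by flow cytometry for high or low surface ICAM1 from PyMT-N tumours carried by C57/B6 mice. ICAM1 (CD54) is a surface glycoprotein to which leukocyte integrins bind. Each fraction had 4 libraries, numbered 1, 2, 3 and 5 and titled cd54+ (ICAM1-high) or cd54- (ICAM1-low), each made from 150 pg of total RNA. Every library came from tumour-bearing mice, so no group without a tumour enters the comparison. The labels give no age, sex or allele, do not describe PyMT-N further, and do not say whether libraries of 1 fraction came from separate animals. The p-values therefore rest on the spread among libraries only, and that spread may be technical.

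The extracellular matrix has a pericellular sheet, the basement membrane, in which laminin trimers, nidogens and the heparan sulfate proteoglycan perlecan are linked to type IV collagen. Interstitial matrix surrounds it with fibronectin, elastic fibres and collagen fibrils that small leucine-rich proteoglycans decorate. Cartilage has a matrix of its own, in which aggrecan is bound to hyaluronan by link protein. Fibroblasts, chondrocytes, endothelial and epithelial cells are the usual makers of structural matrix, whereas fibronectin and versican are also made by monocytes and macrophages. Mature neutrophils are known for releasing enzymes that cut matrix rather than for making its structural proteins. In bulk RNA, fewer cells of a type and less RNA per cell cannot be told apart.

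Library totals were 15940328 to 21825096 estimated counts. Levels below are CPM, each count relative to the size of its library, with sizes scaled by the trimmed mean of M-values (TMM), and 3 counts, taken as the floor of detection for counting error only, were 0.121 to 0.263 CPM. The library labelled ICAM1-low replicate 5 stood apart before any matrix gene was considered. It held 138 CPM of Icam1, whereas ICAM1-low replicates 1, 2 and 3 held 4.31 to 18.7 CPM. On this scale it was above all 4 ICAM1-high libraries (42.4 to 122 CPM). The TMM factor of ICAM1-low replicate 5 was 0.718 (0.956 to 1.17 in the others), which raises its CPM. By library size alone, its Icam1 level would lie under that of ICAM1-high replicate 5 and above the other ICAM1-high libraries. The 10 markers of neutrophils, among them S100a8, Csf3r and Ly6g, all had counts in every library. In ICAM1-high replicate 1, however, Ly6g was under the floor (0.095 CPM, floor 0.143 CPM). The 10 neutrophil markers summed to 5724 to 32249.8 CPM in ICAM1-low and 2016 to 4282 CPM in ICAM1-high libraries. The 10 macrophage markers, among them C1qa, Mrc1 and Adgre1, were all above the floor in every library. Their sums were 627 to 1072 CPM in ICAM1-low and 5100.3 to 15447 CPM in ICAM1-high libraries. Both marker lists thus differed between the fractions without overlap, 3 of the 10 neutrophil markers fell and 8 of the 10 macrophage markers rose by the edgeR test used below, and their part in the matrix results was not tested.

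Most matrix genes had lower levels in the ICAM1-high than in the ICAM1-low libraries, and the differences that passed the test in all 8 libraries were those of 3 genes of interstitial matrix. Of the 39 genes, 37 passed the filter on low counts and 36 of these had a negative log2 fold change (ICAM1-high over ICAM1-low), against 52.3% of all 13575 genes tested. Fbln2, Fbln5 and Thbs2 fell (adjusted p under 0.05 by the quasi-likelihood test of edgeR), which is 3 of 37, and 0.273% of all genes tested were called lower. No member was called higher, against 1.22% of all genes. At an unadjusted p under 0.05, 21 members were lower and 1 was higher, with 8.96% and 7.96% of all genes so called. The median log2 fold change was -2.12 over the 37 members and -0.07 over all genes. With library sizes only, the median of all genes moved by 0.24, and that of the members was -1.92. The 4 ICAM1-high libraries all lay under the 4 ICAM1-low libraries for 10 of 37 members (3.89% of all genes), and all lay above them for 1, Ecm1 (7.51% of all genes).

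The count of calls changed with the libraries that entered, with the test and filter, and with whether the shared number was a term of the fit. With that number as a block, 14 of 37 members fell in the same 8 libraries, and 261 of all 13575 genes did. With group only in these 8 libraries, DESeq2 and limma-voom also called 14 members lower each (642 and 376 of all genes). Without the filter on low counts, edgeR called 7 members lower (120 of all genes). In replicates 1, 2 and 3 alone, 35 of 37 members had a negative log2 fold change (49.7% of 13778 genes tested). There 11 of 37 fell (1.38% of genes) and none rose (1.59% of genes). These 11 were Fn1, Vcan, Fbln2, Eln, Sparc, Thbs2, Acan, Hapln1, Cytl1, Fmod and Nid2. Without the library labelled ICAM1-low replicate 5 there were 10. Without ICAM1-low replicate 1, ICAM1-low replicate 2, ICAM1-high replicate 1, ICAM1-high replicate 2 or ICAM1-high replicate 5, each left out alone, no member passed the threshold. Simulated counts for this 8-library design had 10 of 50 genes recovered at an 8-fold change and 2 of 50 at a 4-fold change. Most changes of that size were thus missed among genes drawn at random from all tested. The drawn genes were not matched to the members in level or spread, so the share of members that could be detected is not known.

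**Figure D1:**
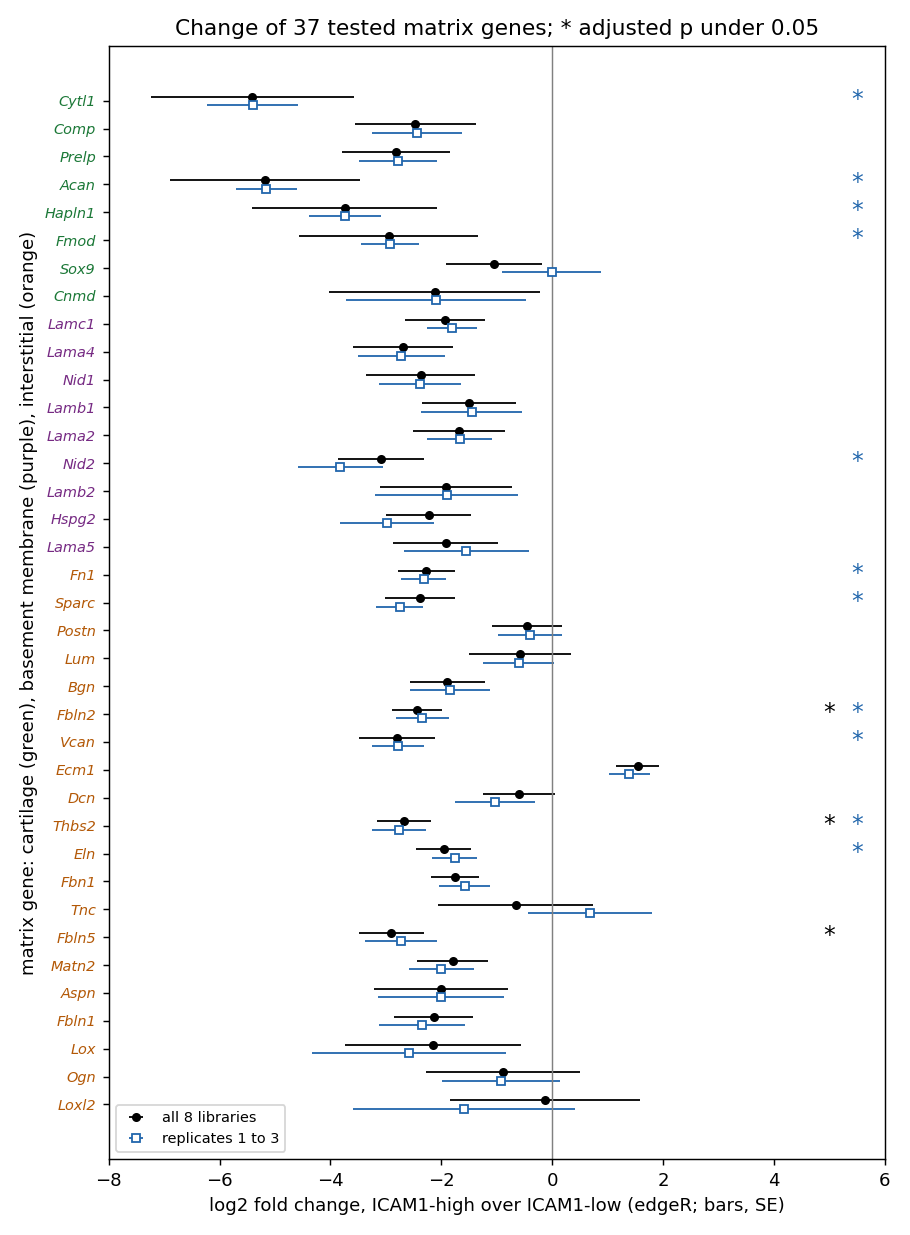
Log2 fold change, ICAM1-high over ICAM1-low, of the 37 tested matrix genes with SE, from all 8 libraries (black circles) and from replicates 1 to 3 (blue squares); an asterisk marks an adjusted p under 0.05 in the fit of that colour. All 8 tested cartilage and all 9 basement membrane genes lie left of 0 in the 8-library fit, and Ecm1 alone lies right of it there.

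Fibronectin, the adhesive glycoprotein that integrins bind and on which other matrix is assembled, had the highest level of all members per length of transcript. Fn1 (ENSMUSG00000026193) stood at 13286, 13876, 11679 and 6348 CPM in ICAM1-low replicates 1, 2, 3 and 5 and at 1855, 2282, 3527 and 1736 CPM in the same-numbered ICAM1-high libraries. All ICAM1-high libraries lay below all ICAM1-low libraries, and the library labelled ICAM1-low replicate 5 was the lowest of its group. Group means were 11297 ± 3428 and 2350.0 ± 819 CPM (SD, n = 4). The difference, -2.27 ± 0.52 (SE) on the log2 scale, missed the threshold (edgeR adjusted p = 0.0571). In replicates 1 to 3 Fn1 fell (log2 fold change -2.32 ± 0.41; edgeR adjusted p = 0.0233), and over 17 alternatives its edgeR, DESeq2 or limma adjusted p ran from 4.47e-05 to 0.194. Fn1 alone took 1.11 to 1.41% of all counts in ICAM1-low replicates 1 to 3, where it ranked 9 to 11 among all genes by length-scaled level. In the library labelled ICAM1-low replicate 5 it took 0.454%, against 0.182 to 0.411% in the ICAM1-high libraries. It also made up 44.8 to 69.8% of the counts of the 39 members, so sums over members mostly follow Fn1.

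Versican, a large chondroitin sulfate proteoglycan that binds hyaluronan, also had its 4 lowest values in the 4 ICAM1-high libraries. Vcan (ENSMUSG00000021614) stood at 211, 282, 473 and 65.8 CPM in ICAM1-low replicates 1, 2, 3 and 5 and at 30.1, 57.7, 50.4 and 10.4 CPM in ICAM1-high. The groups did not overlap, although the lowest ICAM1-low library (replicate 5) was close to the highest ICAM1-high library. The log2 fold change was -2.80 ± 0.69 (SE, n = 4 against 4; edgeR adjusted p = 0.0717), and -2.78 ± 0.47 in replicates 1 to 3, where Vcan fell (edgeR adjusted p = 0.02; 0.00128 to 0.205 over 17 alternatives).

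Fibulins, elastin and fibrillin, the proteins of elastic fibres and their microfibrils, had no overlap between the fractions for any of the 5 that were tested (3.89% of all genes were lower without overlap). Fibulin-2 is a glycoprotein that joins elastic fibres and basement membranes. Fbln2 (ENSMUSG00000064080) stood at 370.4, 303, 544 and 376 CPM in ICAM1-low replicates 1, 2, 3 and 5 and at 42.7, 81.0, 113 and 58.2 CPM in ICAM1-high. Its lowest ICAM1-low value was thus well above its highest ICAM1-high value, and the library labelled ICAM1-low replicate 5 lay within the range of the others. Fbln2 fell from 398 ± 103 to 73.6 ± 30.4 CPM (SD, n = 4), which is -2.44 ± 0.45 (SE) on the log2 scale (edgeR adjusted p = 0.0286). Fibulin-5 binds elastin and integrins and is needed for elastic fibre assembly. Fbln5 (ENSMUSG00000021186) stood at 81.7, 39.3, 60.3 and 54.1 CPM in ICAM1-low and at 4.32, 6.89, 15.7 and 4.69 CPM in ICAM1-high replicates 1, 2, 3 and 5. The groups again did not overlap, and Fbln5 fell by 2.90 ± 0.59 on the log2 scale (edgeR adjusted p = 0.0408). In replicates 1 to 3 alone Fbln5 was just outside the threshold (-2.73 ± 0.65; edgeR adjusted p = 0.0536; 3.15e-05 to 0.129 over 17 alternatives).

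Elastin, the rubber-like core of the fibre, and fibrillin-1, the main microfibril protein, had smaller differences. Eln (ENSMUSG00000029675) stood at 125, 106, 115 and 86.2 CPM in ICAM1-low and at 34.7, 29.8, 36.6 and 9.88 CPM in ICAM1-high replicates 1, 2, 3 and 5. The groups did not overlap and the log2 fold change was -1.96 ± 0.49 (edgeR adjusted p = 0.0729). Eln fell in replicates 1 to 3 (-1.76 ± 0.40; edgeR adjusted p = 0.0466; 0.00381 to 0.199 over 17 alternatives). Fbn1 ran from 88.0 to 116 CPM in ICAM1-low and from 22.5 to 49.2 CPM in ICAM1-high libraries (difference -1.75 ± 0.43 on the log2 scale; edgeR adjusted p = 0.0707). Fibulin-1, a blood and matrix glycoprotein, had the smallest counts of the 5: Fbln1 ran from 9.0 to 39 CPM against 3.28 to 6.85 CPM (-2.14 ± 0.71; edgeR adjusted p = 0.165). Efemp1, which encodes fibulin-3, did not pass the filter: it was at 0 or 1 count in all ICAM1-low libraries and in ICAM1-high replicates 1 and 2, and at 24 and 25 counts in ICAM1-high replicates 3 and 5.

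Matricellular proteins, which act on cells more than they build structure, did not move together. Thrombospondin-2 is an inhibitor of vessel growth. Thbs2 (ENSMUSG00000023885) stood at 186, 198, 190.3 and 96.0 CPM in ICAM1-low replicates 1, 2, 3 and 5 and at 15.4, 22.4, 45.6 and 21.8 CPM in ICAM1-high. It fell from 168 ± 47.9 to 26.3 ± 13.3 CPM (SD, n = 4), which is -2.67 ± 0.49 on the log2 scale (edgeR adjusted p = 0.0264), the smallest adjusted p of the 37 members. It stayed past the threshold in 12 of 17 alternatives, the highest number among the members. Of the 3 genes that fell in all 8 libraries, not all were called again when ICAM1-high replicate 3 or ICAM1-low replicate 3 was left out: without ICAM1-high replicate 3 Fbln5 and Thbs2 were called, and without ICAM1-low replicate 3 Fbln2 and Thbs2.

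SPARC, also called osteonectin, is a collagen-binding glycoprotein and, per length, ranked 2 among the members in ICAM1-low. Sparc (ENSMUSG00000018593) stood at 2103, 1283, 3038 and 299 CPM in ICAM1-low and at 331, 279, 331 and 345 CPM in ICAM1-high replicates 1, 2, 3 and 5. The ICAM1-high libraries were nearly level, and the library labelled ICAM1-low replicate 5 lay among them. The log2 fold change was -2.39 ± 0.63 over 8 libraries (edgeR adjusted p = 0.0884). Sparc fell in replicates 1 to 3 (-2.75 ± 0.42; edgeR adjusted p = 0.0155; 0.00276 to 0.245 over 17 alternatives).

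Periostin, a fibroblast product that binds collagen and integrins, was abundant in both fractions. Postn (ENSMUSG00000027750) stood at 628, 568, 981 and 295 CPM in ICAM1-low and at 208, 362, 1054 and 174 CPM in ICAM1-high replicates 1, 2, 3 and 5. Its groups overlapped, since ICAM1-high replicate 3 was the highest of all 8 (log2 fold change -0.46 ± 0.63; edgeR adjusted p = 0.754). Matrilin-2, an adaptor protein of filamentous networks, was even in ICAM1-low replicates 1 to 3: Matn2 stood at 63.5, 64.0 and 65.3 CPM there, with 13.4 CPM for the library labelled ICAM1-low replicate 5. The ICAM1-high libraries held 6.18 to 25.6 CPM (-1.79 ± 0.64; edgeR adjusted p = 0.196).

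Ecm1 and Tnc departed from the common order. Ecm1 (ENSMUSG00000028108), which encodes a secreted glycoprotein known from skin, stood at 75.5, 66.6, 97.8 and 53.1 CPM in ICAM1-low and at 219, 219, 180.4 and 236 CPM in ICAM1-high replicates 1, 2, 3 and 5. All ICAM1-high values were above all ICAM1-low values, and the libraries numbered 5 were in order with the rest. The log2 fold change of 1.54 ± 0.38 missed the threshold (edgeR adjusted p = 0.0729), and it was positive in all 17 alternatives (1.39 to 1.74). With library sizes only Ecm1 passed it (log2 fold change 1.74; edgeR adjusted p = 0.0494; 0.0067 to 0.195 over 17 alternatives). Tenascin-C is a large glycoprotein of remodelling and tumour matrix. Tnc stood at 9.99, 11.3 and 1.06 CPM in ICAM1-low replicates 1 to 3 and at 12.6, 21.1 and 1.54 CPM in ICAM1-high, whereas the libraries numbered 5 held 217 CPM (the one labelled ICAM1-low) and 116 CPM (the other). It was thus highest in the libraries numbered 5 of both fractions (log2 fold change -0.66 ± 1.40; edgeR adjusted p = 0.851).

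Small leucine-rich proteoglycans, which bind collagen fibrils and set their thickness, overlapped between the fractions. Biglycan had the smallest p of the 5: Bgn ran from 308 to 727 CPM in ICAM1-low and from 25.3 to 317 CPM in ICAM1-high libraries (difference -1.89 ± 0.68 on the log2 scale; edgeR adjusted p = 0.198). Decorin and lumican had smaller differences, with log2 fold changes of -0.59 ± 0.65 for Dcn and -0.58 ± 0.92 for Lum (edgeR adjusted p = 0.687 and 0.792). In replicate 3 both fractions held the same Lum level, 823 CPM in ICAM1-low and 821 CPM in ICAM1-high. Ogn (0 to 16.5 CPM) and Aspn (0.808 to 127 CPM), for osteoglycin and asporin, ranged widely within both groups. The enzymes that cross-link collagen and elastin had few counts in most libraries. Lox was at 50 CPM in ICAM1-low replicate 3 and at 0.296 to 0.439 CPM in the other ICAM1-low libraries. The ICAM1-high libraries held 0.435 to 4.55 CPM of Lox, and 1 of 4 same-numbered pairs was lower in ICAM1-high. Its log2 fold change of -2.15 ± 1.59 (edgeR adjusted p = 0.526) thus rested on ICAM1-low replicate 3. Loxl2 reached 9.5 CPM at most. The sign of Tnc, Lox and Loxl2 turned in 4, 3 and 6 alternatives. None of these 3 had an adjusted p under 0.27 in any alternative.

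**Figure D2:**
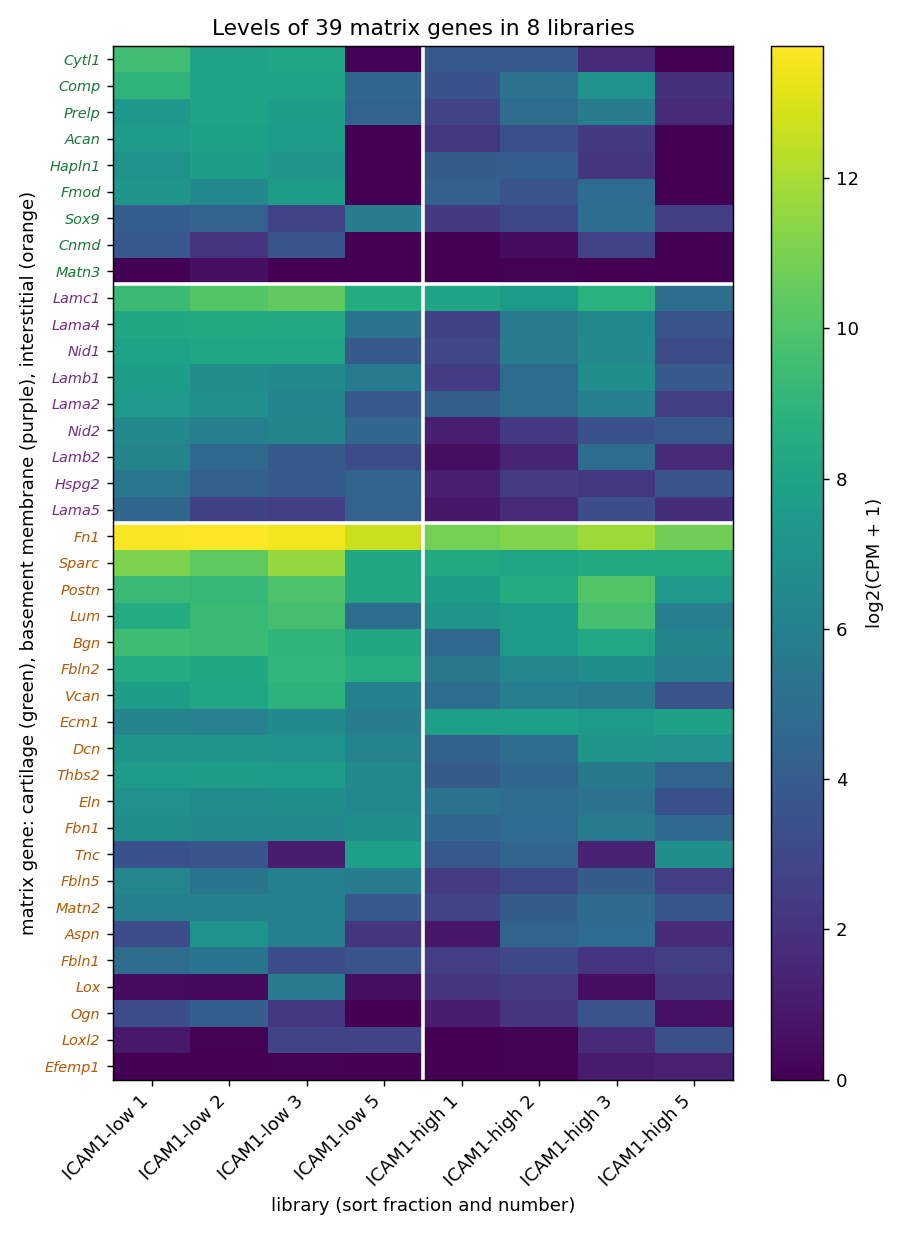
Level of each of the 39 matrix genes, as log2(CPM + 1), in the 4 ICAM1-low (left) and 4 ICAM1-high libraries (right), with genes grouped by class and sorted by mean CPM. Fn1 is the brightest row in every library, and the columns numbered 5 are dark for Acan, Hapln1, Cytl1 and Fmod in both fractions.

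Upstream sequence was available for 27 of the 39 members, from RefSeq on build GRCm38.p6, which is not the build of the deposited counts (GRCm39). The 250 bases before the start site are shown for Fbln2 and Thbs2, as members that fell in all 8 libraries, and for Ecm1, whose difference had the opposite sign. Capitals mark matches to 4 motifs on either strand. The letters searched for the GC box, to which Sp1 family factors bind, were GGGCGG. The TATA box, where the general transcription machinery can assemble, was searched as TATAAA. Sites of the AP-1 factors Fos and Jun were searched with TGANTCA as the pattern. The core that SOX factors recognise was searched as AACAAT on both strands too. No match in the printed windows overlaps a match to another of these motifs.
Fbln2 (chr6:91212514-91212763, plus strand): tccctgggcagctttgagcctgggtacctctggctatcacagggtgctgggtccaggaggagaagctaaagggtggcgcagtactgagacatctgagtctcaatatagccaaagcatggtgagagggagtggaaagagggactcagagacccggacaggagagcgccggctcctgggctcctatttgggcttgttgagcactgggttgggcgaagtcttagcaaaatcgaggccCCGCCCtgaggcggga
Thbs2 (chr17:14694263-14694512, minus strand): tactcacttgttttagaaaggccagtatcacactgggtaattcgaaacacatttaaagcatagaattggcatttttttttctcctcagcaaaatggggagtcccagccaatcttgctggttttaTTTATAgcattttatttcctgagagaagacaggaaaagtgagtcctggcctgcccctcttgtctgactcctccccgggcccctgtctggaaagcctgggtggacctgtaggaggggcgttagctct
Ecm1 (chr3:95739570-95739819, minus strand): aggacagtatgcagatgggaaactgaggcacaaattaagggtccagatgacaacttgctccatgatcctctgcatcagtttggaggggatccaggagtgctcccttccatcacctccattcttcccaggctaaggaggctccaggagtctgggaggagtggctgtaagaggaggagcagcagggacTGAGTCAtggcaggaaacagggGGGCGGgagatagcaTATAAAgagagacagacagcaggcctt
The window of Ecm1 held an AP-1 match that begins 64 bases, a GC box 42 bases and a TATA box 27 bases before the start site. Fbln2 held 1 GC box, 16 bases before its start, and Thbs2 1 TATA box match, 126 bases before its start. Among the 32851 windows of the table, 32.7% held a GC box, 12.4% a TATA box, 6.75% an AP-1 site and 9.42% a SOX core. Of the 27 members 16, 6, 2 and 4 held them in that order, a member being counted if any of its windows held the match. The percentages are per window and the member counts per gene, so they are not on the same unit. These matches describe letters only.

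Cartilage genes had the largest median difference of the 3 classes. Acan, Hapln1, Cytl1, Fmod and Cnmd had at most 1 count in either library numbered 5, so their differences came from replicates 1 to 3, whereas Comp and Prelp were also 7.88- and 9.17-fold lower in ICAM1-high within pair 5. Of the 9 cartilage genes 8 were tested, with log2 fold changes from -5.41 to -1.05 and a median of -2.89. By edgeR, none passed the threshold in all 8 libraries with group as the only term. Also with group only, Prelp passed it by the other tests (DESeq2 adjusted p = 0.0208, limma-voom adjusted p = 0.0381). With the shared number as a block, Acan, Cytl1, Prelp, Hapln1, Fmod and Comp passed it (edgeR adjusted p from 0.00819 to 0.0457). Acan, Hapln1, Cytl1 and Fmod fell in replicates 1 to 3. For 6 of the 8 tested genes the 3 ICAM1-high libraries lay below the 3 ICAM1-low libraries, and 13% of all genes did so.

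Aggrecan is the proteoglycan that gives cartilage its swelling pressure, and link protein 1 fastens it to hyaluronan. Acan (ENSMUSG00000030607) stood at 197, 234 and 187 CPM in ICAM1-low replicates 1, 2 and 3 and at 3.61, 9.27 and 4.10 CPM in ICAM1-high, with 0 counts in both libraries numbered 5. In replicates 1 to 3 the level was 35.7-fold lower in ICAM1-high (log2 fold change -5.16 ± 0.55; edgeR adjusted p = 0.00583; 0.00583 to 0.342 over 17 alternatives). Hapln1 (ENSMUSG00000021613) stood at 135, 198 and 142 CPM in ICAM1-low replicates 1 to 3, at 15.6, 16.6 and 3.14 CPM in ICAM1-high, and at 0 counts in both libraries numbered 5. Acan and Hapln1 were thus alike by library, high in 3 ICAM1-low, low in 3 ICAM1-high and absent from the counts in both numbered 5. Hapln1 fell in replicates 1 to 3 (-3.73 ± 0.65; edgeR adjusted p = 0.0228; 0.0171 to 0.428 over 17 alternatives). Where a library held 0 counts, the floor of 3 counts allows up to 0.166 CPM in ICAM1-high replicate 5 and 0.263 CPM in its ICAM1-low counterpart.

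Cytl1 encodes a small secreted protein of chondrocytes. Cytl1 (ENSMUSG00000062329) stood at 749, 240.2 and 276 CPM in ICAM1-low replicates 1 to 3 and at 13.6, 14.0 and 2.12 CPM in ICAM1-high, with 1 count and 0 counts in the libraries numbered 5. Its fold in replicates 1 to 3, 42.3, was the largest of all members (log2 fold change -5.40 ± 0.82; edgeR adjusted p = 0.0155; 0.00819 to 0.321 over 17 alternatives). Fibromodulin is a collagen-binding proteoglycan of cartilage and tendon. Fmod (ENSMUSG00000041559) stood at 143, 91.5 and 193 CPM in ICAM1-low replicates 1 to 3 and at 17.6, 10.8 and 26.8 CPM in ICAM1-high, and had 0 counts in both libraries numbered 5. Fmod fell in replicates 1 to 3 (-2.93 ± 0.52; edgeR adjusted p = 0.0233; 0.0233 to 0.571 over 17 alternatives).

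COMP, a pentameric glycoprotein of cartilage and tendon, and PRELP, a proteoglycan that links basement membrane to connective tissue, were not absent from the libraries numbered 5. Comp (ENSMUSG00000031849) stood at 496, 262, 244 and 22.6 CPM in ICAM1-low and at 9.93, 37.2, 135 and 2.87 CPM in ICAM1-high replicates 1, 2, 3 and 5 (log2 fold change -2.47 ± 1.09; edgeR adjusted p = 0.284). Prelp (ENSMUSG00000041577) stood at 163, 259, 208 and 20.3 CPM in ICAM1-low and at 6.03, 28, 55.8 and 2.21 CPM in ICAM1-high (-2.82 ± 0.98; edgeR adjusted p = 0.183). Both were lower in ICAM1-high in all 4 same-numbered pairs, and for both ICAM1-high replicate 3 exceeded the library labelled ICAM1-low replicate 5. The chondromodulin gene Cnmd reached 13 CPM, in ICAM1-low replicate 1, and had 0 counts in ICAM1-high replicate 1 and both libraries numbered 5. Matn3, for matrilin-3, held at most 8 counts in any library and was not tested.

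Sox9, the transcription factor that drives chondrocyte genes and is also present in epithelial cells, did not have the library order of these genes. It stood at 16.3, 19.3, 6.07 and 53.6 CPM in ICAM1-low and at 4.09, 6.97, 29.9 and 4.91 CPM in ICAM1-high replicates 1, 2, 3 and 5. Its highest level was in the library labelled ICAM1-low replicate 5, where Acan and Hapln1 had no counts. Its log2 fold change was -1.05 ± 0.86 over all 8 libraries (edgeR adjusted p = 0.566), and within pair 5 it was 10.9-fold lower in ICAM1-high. In replicates 1 to 3 the log2 fold change of Sox9 was -0.01 ± 0.89 (edgeR adjusted p = 0.998; 0.253 to 0.998 over 17 alternatives).

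The upstream windows of Acan and Cytl1 are shown because these genes had the largest log2 fold changes of all members.
Acan (chr7:79052976-79053225, plus strand): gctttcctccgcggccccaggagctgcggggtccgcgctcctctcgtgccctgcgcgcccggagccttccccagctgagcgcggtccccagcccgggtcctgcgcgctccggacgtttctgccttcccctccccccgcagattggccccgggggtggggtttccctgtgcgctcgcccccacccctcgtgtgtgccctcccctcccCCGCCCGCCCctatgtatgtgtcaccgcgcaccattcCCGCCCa
Cytl1 (chr5:37735269-37735518, plus strand): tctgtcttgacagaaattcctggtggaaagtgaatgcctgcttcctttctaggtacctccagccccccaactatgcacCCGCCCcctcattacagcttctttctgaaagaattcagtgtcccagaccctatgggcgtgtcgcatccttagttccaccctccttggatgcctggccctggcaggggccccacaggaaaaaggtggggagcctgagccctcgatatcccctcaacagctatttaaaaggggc
Capitals again mark matches to the 4 motifs, and all in this pair are GC boxes on the opposite strand. The window of Acan was 74.4% G and C and held 3 GC box matches, of which those that begin 44 and 40 bases before the start overlap, whereas that of Cytl1 was 54.8% G and C and held 1 (median over all windows 52.4%). Matches to the SOX core were found in 1 of 7 cartilage members with a sequence, Prelp.

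Basement membrane genes all had negative log2 fold changes, 9 of 9, with a median of -1.94. In the edgeR fit used above, none passed the threshold in 8 libraries with group as the only term. Other tests with group only gave calls, among them Lama4 (DESeq2 adjusted p = 0.0171, limma-voom adjusted p = 0.0327). Laminin gamma 1 is part of most laminin trimers and ranked first of the 9 per length in both fractions. Lamc1 (ENSMUSG00000026478) stood at 655, 1078, 1376 and 366 CPM in ICAM1-low and at 259, 183, 435 and 30.0 CPM in ICAM1-high replicates 1, 2, 3 and 5. The groups overlapped at 1 point, since ICAM1-high replicate 3 exceeded the library labelled ICAM1-low replicate 5 (log2 fold change -1.94 ± 0.72; edgeR adjusted p = 0.207). Laminin alpha 4 is the chain of vessel and stromal laminins. Lama4 (ENSMUSG00000019846) stood at 295, 333, 321 and 38.0 CPM in ICAM1-low and at 5.42, 48.7, 87.2 and 11 CPM in ICAM1-high (-2.69 ± 0.90; edgeR adjusted p = 0.166). With the shared number as a block, Lamc1 and Lama4 passed the threshold (edgeR adjusted p = 0.0461 and 0.043).

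The nidogens, which bridge laminin and type IV collagen, differed between themselves in the libraries numbered 5. Nid1 (ENSMUSG00000005397) stood at 253, 274, 269 and 14.0 CPM in ICAM1-low and at 6.75, 55.7, 86.7 and 7.68 CPM in ICAM1-high replicates 1, 2, 3 and 5 (-2.37 ± 0.98; edgeR adjusted p = 0.249). Nid2 (ENSMUSG00000021806) stood at 88.9, 59.7, 75.5 and 22.3 CPM in ICAM1-low and at 1.24, 4.11, 10.2 and 13.3 CPM in ICAM1-high. The groups of Nid2 did not overlap (-3.09 ± 0.77; edgeR adjusted p = 0.0729), and Nid2 fell in replicates 1 to 3 (-3.82 ± 0.77; edgeR adjusted p = 0.0355; 0.000636 to 0.209 over 17 alternatives). Of the remaining laminin chains Lama2, Lama5, Lamb1 and Lamb2 had log2 fold changes between -1.92 and -1.50, with overlapping groups. Perlecan is the large heparan sulfate proteoglycan of the membrane, and Hspg2 ran from 15.3 to 41.2 CPM in ICAM1-low and from 1.19 to 10.8 CPM in ICAM1-high libraries (-2.23 ± 0.77; edgeR adjusted p = 0.182). Without ICAM1-high replicate 3, in which Lamb1 (114 CPM) and Lamb2 (28.4 CPM) were highest of their group, the median of the 9 genes was -2.86.

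**Figure D3:**
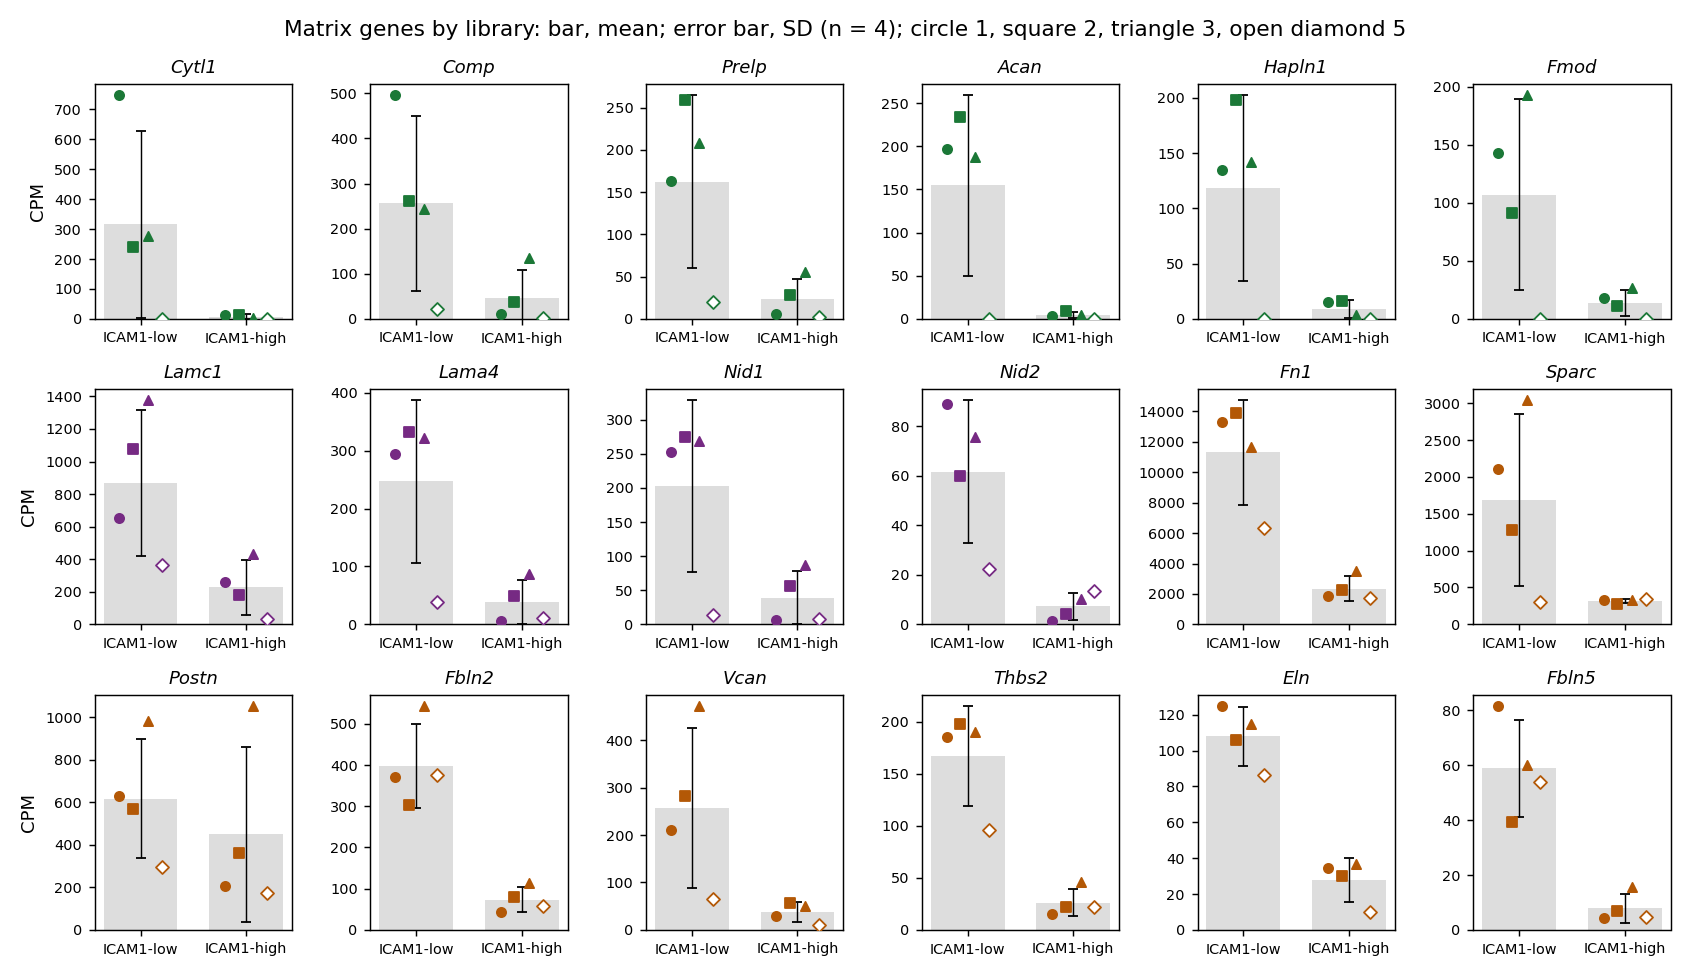
CPM of 18 matrix genes in each library; bars are means of 4 libraries and error bars SD, with the libraries numbered 5 as open diamonds and each panel on its own axis from 0. For Fbln2, Fbln5, Thbs2, Eln and Fn1 the open diamond of ICAM1-low lies above every ICAM1-high point, whereas for Acan, Hapln1, Cytl1 and Fmod both open diamonds lie at or near 0.

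The libraries numbered 5 lacked some matrix genes and, on TMM-scaled levels, held others near the level of replicates 1 to 3. In the library labelled ICAM1-low replicate 5, Fbln2, Fbln5, Eln and Fbn1 stood at 92.8%, 89.6%, 74.9% and 116% of the mean of ICAM1-low replicates 1 to 3. Fn1 stood at 49.0% and Thbs2 at 50.2% of that mean. Comp, Prelp and Nid1 stood at 6.78%, 9.65% and 5.29%. In ICAM1-high replicate 5 the same comparison with ICAM1-high replicates 1 to 3 gave 73.9% for Fbln2, 67.9% for Fn1, 4.72% for Comp, 7.38% for Prelp and 15.4% for Nid1. Fbn1 stood at 74.7% there, but Fbln5 at 52.3% and Eln at 29.3%, lower than in the ICAM1-low comparison. Nid2 and Hspg2 stood at 256% and 351% in ICAM1-high, against 29.8% and 80.8% in ICAM1-low. Of the 37 members with a mean of over 1 CPM, 19 were under 50% in both fractions, and 2, Tnc and Loxl2, were over 100% in both. With 1 library per fraction these ratios have no replicate check. Those of ICAM1-low also depend on the TMM factor of its replicate 5, 0.718, and would be lower by library size alone.

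**Figure D4:**
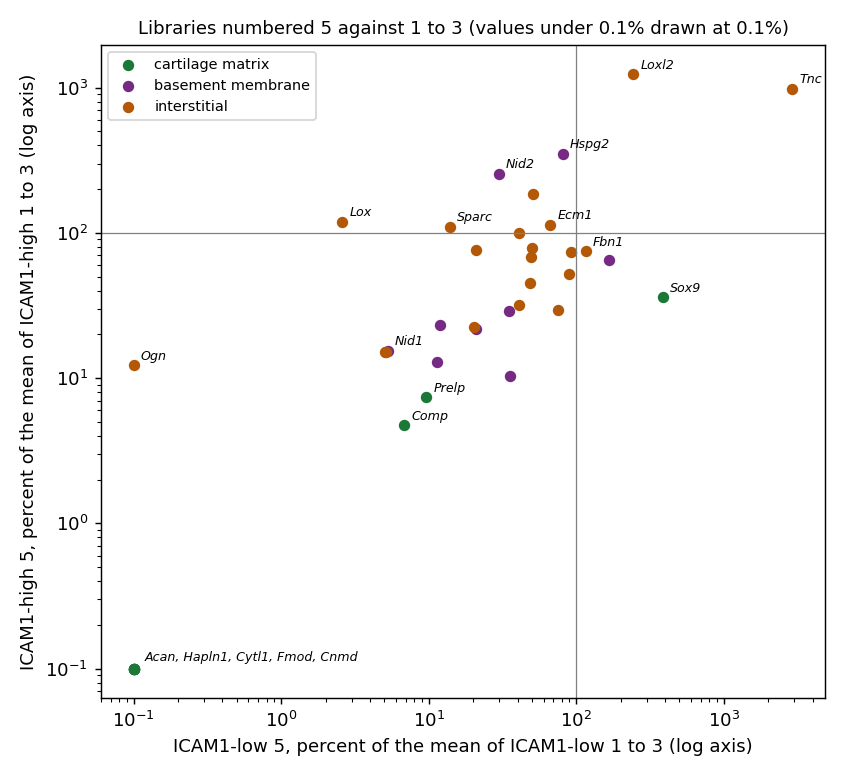
Level in each library numbered 5 as a percentage of the mean of replicates 1 to 3 of its fraction, for 37 matrix genes with a mean over 1 CPM (both axes log); values under 0.1% are drawn at 0.1%. The 5 cartilage genes at the lower left corner were at or near 0 in both fractions, and Tnc and Loxl2 at the upper right were above their 1 to 3 means.

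Summed per library, all 3 classes were lower in ICAM1-high by pair, with overlap between groups in cartilage and basement membrane. Cartilage genes summed to 1911, 1308, 1266 and 96.6 CPM in ICAM1-low and to 70.5, 123, 263 and 9.99 CPM in ICAM1-high replicates 1, 2, 3 and 5. Basement membrane genes summed to 1804, 2020.4, 2239.9 and 548 CPM against 296, 357, 839 and 96.5 CPM. Interstitial genes summed to 18524, 18510.1, 18929 and 8448 CPM against 2987, 3838, 6764 and 3029 CPM. Of these 3 sums only the interstitial one did not overlap, and that rested on Fn1. Without Fn1 the interstitial genes summed to 5238, 4634, 7250.4 and 2100.5 CPM against 1132, 1556, 3237 and 1293 CPM, so that ICAM1-high replicate 3 exceeded the library labelled ICAM1-low replicate 5. In every class the same-numbered ICAM1-high library was lower in all 4 pairs, by 4.81- to 27.1-fold for cartilage, 2.67- to 6.09-fold for basement membrane and 2.79- to 6.20-fold for interstitial genes (1.62- to 4.63-fold without Fn1).

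Markers of matrix-making cells also differed between libraries. The 11 chondrocyte markers summed to 641, 695, 876 and 8.95 CPM in ICAM1-low and to 61.4, 189.7, 246 and 3.59 CPM in ICAM1-high replicates 1, 2, 3 and 5. As with the cartilage members, the libraries numbered 5 were lowest in both fractions. Of the 6 tested, 5 were negative and 1 was positive, and none was called (median log2 fold change -2.69). The positive one was the collagen gene Col10a1 (0.23 ± 1.42; edgeR adjusted p = 0.951). It stood at 73.2, 24.8 and 105 CPM in ICAM1-low and at 7.55, 103 and 130.3 CPM in ICAM1-high replicates 1 to 3. The cartilage collagen genes Col2a1, Col9a1 and Col11a1 held 48.6 to 408 CPM in ICAM1-low replicates 1 to 3. In the library labelled ICAM1-low replicate 5 they stood at 0.0877, 2.63 and 0.439 CPM. The markers Matn1, Chad, Snorc and Ucma reached at most 0.665, 1.33, 0.307 and 1.01 CPM in any library, and 1 to 4 of the 11 were at 0 in each. The 12 fibroblast markers summed to 1954 to 2282 CPM in ICAM1-low and 316 to 1905 CPM in ICAM1-high libraries, and there ICAM1-high replicate 5 was nearly level with its ICAM1-low partner. Of these 11 were tested, 8 were negative and 3 positive, and 1, the type VI collagen chain gene Col6a1, fell (log2 fold change -2.72 ± 0.52; edgeR adjusted p = 0.0327). The 3 positive ones were Thy1 (2.26 ± 1.29), Pdpn (1.19 ± 1.43) and Col1a1 (0.34 ± 0.88), none of them called. The 7 pericyte and smooth muscle markers summed to 57.1 to 164 CPM against 9.55 to 48.3 CPM, with Rgs5 at 0 in all ICAM1-low libraries. Endothelial markers summed to at most 67.9 CPM and epithelial markers to at most 69.6 CPM. Osteoblast markers summed to 74.9 to 145 CPM in ICAM1-low and 18.7 to 81.0 CPM in ICAM1-high replicates 1 to 3. In the libraries numbered 5 they summed to 459.6 CPM (ICAM1-low) and 373 CPM (ICAM1-high). Col1a1, also a fibroblast marker, held 164 and 336 CPM of these, and Dmp1 202 and 9.0 CPM. Bglap, Bglap2 and Ibsp reached at most 1.05 CPM in any library, and Alpl was at 0 in both numbered 5. Of the 6 monocyte markers, which summed to 555 to 1646 CPM in ICAM1-low and 1017 to 1764 CPM in ICAM1-high, 3 rose (Ms4a4c, Cx3cr1 and Ccr2) and 1 fell (Ly6c2). The chemokine receptor gene Ccr2 went from 27.4 ± 13 to 386 ± 76.7 CPM (3.81 ± 0.50 on the log2 scale; edgeR adjusted p = 0.00992), and Ly6c2 from 119 ± 40.5 to 19.6 ± 11.2 CPM (-2.60 ± 0.57; edgeR adjusted p = 0.0492). The 4 platelet markers summed to 5.96 to 55.7 CPM in ICAM1-low and 50.4 to 72.4 CPM in ICAM1-high. Pf4 held 43.7 to 68.7 CPM of the ICAM1-high sums, and it alone rose (3.28 ± 0.71; edgeR adjusted p = 0.0485). Gp1bb went the other way (-3.15 ± 1.40; edgeR adjusted p = 0.286), Itga2b did not differ, and Ppbp reached at most 2.02 CPM. The part of these cells in the matrix results was not tested.

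**Figure D5:**
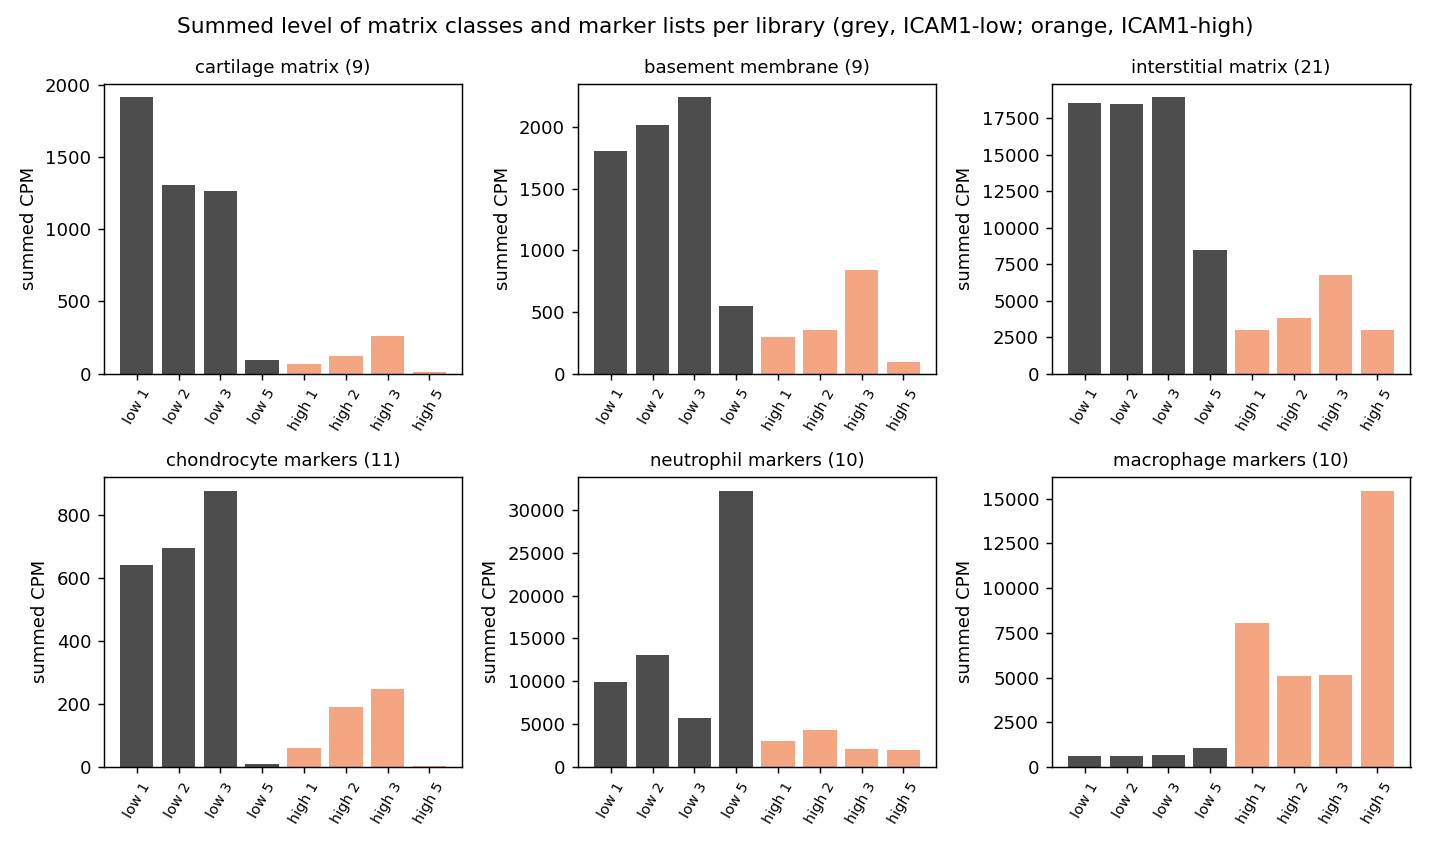
Summed CPM per library of the 3 matrix classes (top) and of chondrocyte, neutrophil and macrophage markers (bottom), ICAM1-low in grey and ICAM1-high in orange, each panel on its own axis. Chondrocyte markers are under 10 CPM in both libraries numbered 5, and neutrophil markers are highest in the library labelled ICAM1-low replicate 5.

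Levels of different genes were compared on counts per kilobase of the deposited gene length, scaled to the same total in every library. On this length-scaled level Fn1 was first in both fractions, at 4971 ± 1926 (SD, n = 4) in ICAM1-low and at 1111 ± 557 in ICAM1-high. Sparc ranked 2 in ICAM1-low (2473 ± 1747) and ranked 3 in ICAM1-high (480.2 ± 72.5). Ecm1 went from rank 11 of 39 in ICAM1-low (174 ± 57.0) to rank 2 in ICAM1-high (527 ± 37). Cytl1 went from rank 4 (668 ± 666) to rank 16 (15.4 ± 15), with a spread in ICAM1-low as large as its mean. The deposited length was under 50% of the longest GENCODE M21 transcript for 14 of 39 members, and for Hspg2 it was 772 bases against 14187. Fn1, Sparc, Lamc1 and Ecm1 are among these 14, so their length-scaled levels are uncertain. With mean CPM per base of the longest transcript instead, a choice made after seeing the data, Fn1 ranked 1 and Sparc 2 in both fractions, Lamc1 ranked first of the basement membrane genes in both, and Ecm1 ranked 12 in ICAM1-low and 4 in ICAM1-high.

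Most other structural matrix genes also had negative log2 fold changes, and none of them was called. Of 6 tested cartilage genes outside the member list all 6 were negative (median log2 fold change -3.19) and none was called, with the smallest p for Itih5, of the inter-alpha-trypsin inhibitor family (-3.23 ± 0.75; edgeR adjusted p = 0.0587). The cartilage layer gene Cilp was high where the label read ICAM1-low replicate 5 (301 CPM) and reached at most 0.205 CPM in the other ICAM1-low libraries, with 0 to 36.9 CPM in ICAM1-high. Of 16 other basement membrane genes 14 were negative and none was called; the first by p was Agrn, the proteoglycan agrin (-2.41 ± 0.69; edgeR adjusted p = 0.118). Of 28 other interstitial genes 26 were negative and none was called, the first being Ccn1 (-2.11 ± 0.64; edgeR adjusted p = 0.135). At an unadjusted p under 0.05 by edgeR, 2, 4 and 11 genes of these 3 lists were lower and 0 were higher (8.96% and 7.96% of all genes). Genes that build glycosaminoglycan chains had a median of -0.52, with 17 of 25 negative and none called, led by the heparan sulfate sulfotransferase gene Ndst1 (-1.40 ± 0.38; edgeR adjusted p = 0.0925). Among 24 matrix and hyaluronan receptors 15 were negative, 9 were positive and 1 was called: Stab1, a scavenger receptor of macrophages, rose from 42.6 ± 4.59 to 496 ± 116 CPM (3.54 ± 0.42 on the log2 scale; edgeR adjusted p = 0.00749).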

How the data were processed

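Neutrophil RNA from 4 ICAM1-high and 4 ICAM1-low sorts was sequenced. The submitters' processing notes name Trim Galore 0.6.6, Salmon 1.9.0 and build GRCm39 (mm39); their settings and the annotation are not stated in these sources. The authors deposited 1 table of estimated counts per gene, one column per library, with a gene length in bases, which is the only other deposited value used. The table had 25669 rows; 88 identifiers repeated with identical values were kept once. Estimated counts were rounded and fitted over all genes with edgeR 4.0.16 in R 4.3.3 (filterByExpr by group, TMM, robust quasi-likelihood F test, group as the only term, Benjamini-Hochberg threshold 0.05). The SE is the log2 fold change divided by the square root of F. Replicates 1 to 3 were fitted apart from 5. Alternatives used limma 3.58.1, DESeq2 1.42.0, other scalings, filters and left-out libraries.

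Genes with values in every library were Fn1, Vcan, the 3 tested members of highest mean CPM per class, and members past the threshold in the 8-library fit or in replicates 1 to 3; Ecm1, Tnc and Sox9 were added after their values were seen. Other matrix genes named are, per list, those called or the one of smallest p, and Cilp was added after its values were seen. Members, lists and tests were chosen with earlier results of these data known. The fit was tested on simulated counts (13182 genes, 200 changed): 0, 2, 10 and 26 of 50 genes changed 2-, 4-, 8- and 16-fold were recovered, with 1 false call. The labels name no molecular identifiers, so reads are not taken as independent molecules and floors cover counting error only.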

Additional observations from a re-analysis of the deposited data

Results flagged for a closer look

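Among 39 members in each group of 4 libraries, a library was marked when its gap to the nearest other was a larger part of the group's range than Dixon's 95% critical value for 4 samples allows, for groups reaching 1 CPM; chance marks about 1 group in 20. There were 9 such values among 75 groups. In ICAM1-low, the library labelled replicate 5 was lowest for Lama4 (38.0 CPM, others 295 to 333), Nid1 (14.0 CPM, others 253 to 274), Thbs2 (96.0 CPM, others 186 to 198) and Matn2 (13.4 CPM, others 63.5 to 65.3). The same library was highest for Tnc (217 CPM, others 1.06 to 11.3). ICAM1-low replicate 3 was highest for Lox (50 CPM, others 0.296 to 0.439). In ICAM1-high, replicate 3 was highest for Cnmd (5.84 CPM, others 0 to 0.363), Sox9 (29.9 CPM, others 4.09 to 6.97) and Lamb2 (28.4 CPM, others 0.428 to 2.21).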

How the results depend on the processing

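Of 37 tested members, 34 kept the sign of their log2 fold change in every one of the 17 alternatives that gave a value; the exceptions were Tnc, Lox and Loxl2. Counts of calls moved far more, and the cause was not tested. Against 3 members called lower, DESeq2 called 14, limma-voom 14, no filter 7, the fit with the replicate block 14, and replicates 1 to 3 alone 11; the 14 under the block include the cartilage genes Acan, Cytl1, Prelp, Hapln1, Fmod and Comp. Leaving out 1 library gave 0 to 10. Against 0 called higher, DESeq2, limma-voom and library sizes only each called 1, Ecm1. Of the other matrix genes 1 was called higher: DESeq2, no filter, the filter of 10 CPM in 4 libraries, library sizes only, upper-quartile scaling and the replicate block each called 2, limma-voom 4, and left-out libraries 0 to 2. Against 0 called lower among these, DESeq2 called 12, limma-voom 8, no filter 3 and the filter of 10 CPM 1. The replicate block called 11 of them lower, replicates 1 to 3 alone 5, and left-out libraries 0 to 4. Over all genes 166 were called higher: DESeq2 called 584, limma-voom 480, library sizes only 258, the replicate block 280, and left-out libraries 4 to 337. Over all genes 37 were called lower: DESeq2 called 642, limma-voom 376, no filter 120, the filter of 10 CPM 61, the replicate block 261, replicates 1 to 3 alone 190, and left-out libraries 0 to 241.

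The median log2 fold change of basement membrane genes was -1.94 and ran from -2.86 to -1.77 with 1 library left out. Tnc changed sign to 0.62 with limma-voom and 0.22 with the replicate block, and ran from -2.27 to 2.32 over left-out libraries. Lox changed sign to 1.51 with limma-voom and 2.26 with the replicate block, and ran from -2.58 to 3.03. Loxl2 changed sign to 0.2 with library sizes only and 0.09 with upper-quartile scaling, and over left-out libraries ran from -2.03 to 0.39. Deviations of same-numbered libraries from their group means had correlations of -0.146, 0.12, 0.154 and 0.38 for numbers 1, 2, 3 and 5. The last was the highest of any ICAM1-low with any ICAM1-high library. The labels do not say what a number stands for, so the block rests on the shared number. Genes at 0 counts in both libraries numbered 5 carry no information on the fractions there, and depth allows only the limits of 3 counts given above.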
